A study of Caenorhabditis elegans with 12 samples.

Results

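The genes described here are the insulin/IGF-1 receptor gene daf-2, the FOXO transcription factor gene daf-16 and 6 genes known as targets of DAF-16, namely mtl-1, mtl-2, lea-1, sod-3, ctl-2 and dod-3. They were chosen for their known place in this pathway, and all 8 were found by gene identifier among the 14508 genes measured. RNA came from whole Caenorhabditis elegans that were synchronised, grown at 20 degrees on OP50-1 bacteria and collected as L4 larvae, with 3 biological replicates in each of 4 strains. N2 is the wild type. Strain WBM55 has the genotype label CA-CRTC-1 with the substitutions S76A and S179A, strain WBM60 the label CA-AAK-2, and strain WBM66, called the double strain here, carries both. CRTC-1 is a coactivator of CREB, and AAK-2 is a catalytic alpha subunit of the energy sensor AMPK, for which CRTC-1 is a substrate. The labels do not say which promoter or tissue drives either construct, and each strain may be 1 line, so strain and construct cannot be told apart.

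In C. elegans, insulin-like peptides act on the receptor DAF-2, which activates the lipid kinase AGE-1. The lipid signal that AGE-1 makes switches on the kinases AKT-1, AKT-2 and SGK-1. Phosphorylation by the AKT kinases keeps DAF-16 in the cytoplasm, and when DAF-2 signalling is low DAF-16 enters the nucleus and turns on genes for stress resistance and long life. The level of daf-16 mRNA does not show where the DAF-16 protein is.

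Values are CPM, the reads of a gene scaled to a common library size by the authors, and rest on 30891634 to 48994152 counted reads per library. The members had between 51 reads, for sod-3, and 43882 reads, for lea-1, in a single library. aak-2 lay at 57.2 to 67.9 CPM in N2 and at 2440 to 2640 in CA-AAK-2, and crtc-1 at 18.3 to 23.4 CPM in N2 and 177 to 207 in CA-CRTC-1. The double strain had 350 to 379 CPM of crtc-1, more than CA-CRTC-1 alone, and 2785 to 3270 CPM of aak-2, more than CA-AAK-2 alone. Its comparison with the single strains, and the interaction, thus also hold a difference in the level of both constructs. Replicates 2 and 3 of the double strain lay farthest apart, with a chi-square per gene of 79.96, where the other pairs within a strain gave 8.60 to 40.0. Replicate 1 of that strain gave 28.7 against replicate 2 and 40.0 against replicate 3, so both are extremes. Results that rest on replicate 3, the farther of these from replicate 1, are given with and without it. Because whole animals were sequenced, fewer cells of a type and less RNA per cell cannot be told apart.

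A difference was called where its p from limma, adjusted by Benjamini and Hochberg's method over all genes tested, was at most 0.01 and its size at least 1.5-fold on the scale of CPM plus 0.5. Genes needed a mean of 5 CPM over the samples compared. Rose and fell are used only for such calls, a difference is in log2 units with its standard error, and levels are in CPM with the SD over 3 libraries. In the double strain against N2, daf-2, mtl-1 and lea-1 rose, mtl-2 fell, and daf-16, ctl-2 and dod-3 were not called. This made 4 called of 7 tested, where 22.5% of all genes were called, 15.6% higher and 6.87% lower. mtl-1 passed the filter only through the double strain, so its call was favoured by the filter, and of the 5 members that averaged at least 5 CPM in both strains 2 rose and 1 fell. In CA-CRTC-1 lea-1 and dod-3 rose, 2 of 6 tested, against 8.79% of all genes called, 6.62% higher and 2.17% lower. In CA-AAK-2 limma called 0 of 6 tested and edgeR 0, with 2 at an unadjusted p under 0.05 (daf-2 and mtl-2), against 12.6% of all genes called, 8.2% higher and 4.4% lower. EdgeR on the recovered reads called 4 members in the double strain and 2 in CA-CRTC-1. The comparisons with N2 share the N2 libraries. The median difference of all genes tested was 0.11 in CA-AAK-2 and 0.14 in the double strain against N2, and rescaling by the median ratio moved these to -0.02 and -0.00. The share of called genes that were higher went from 75.3% to 64.9% in CA-CRTC-1, from 65.1% to 41.5% in CA-AAK-2 and from 69.5% to 51.4% in the double strain under that rescaling. Each member kept its call in all 3.

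**Figure D1:**
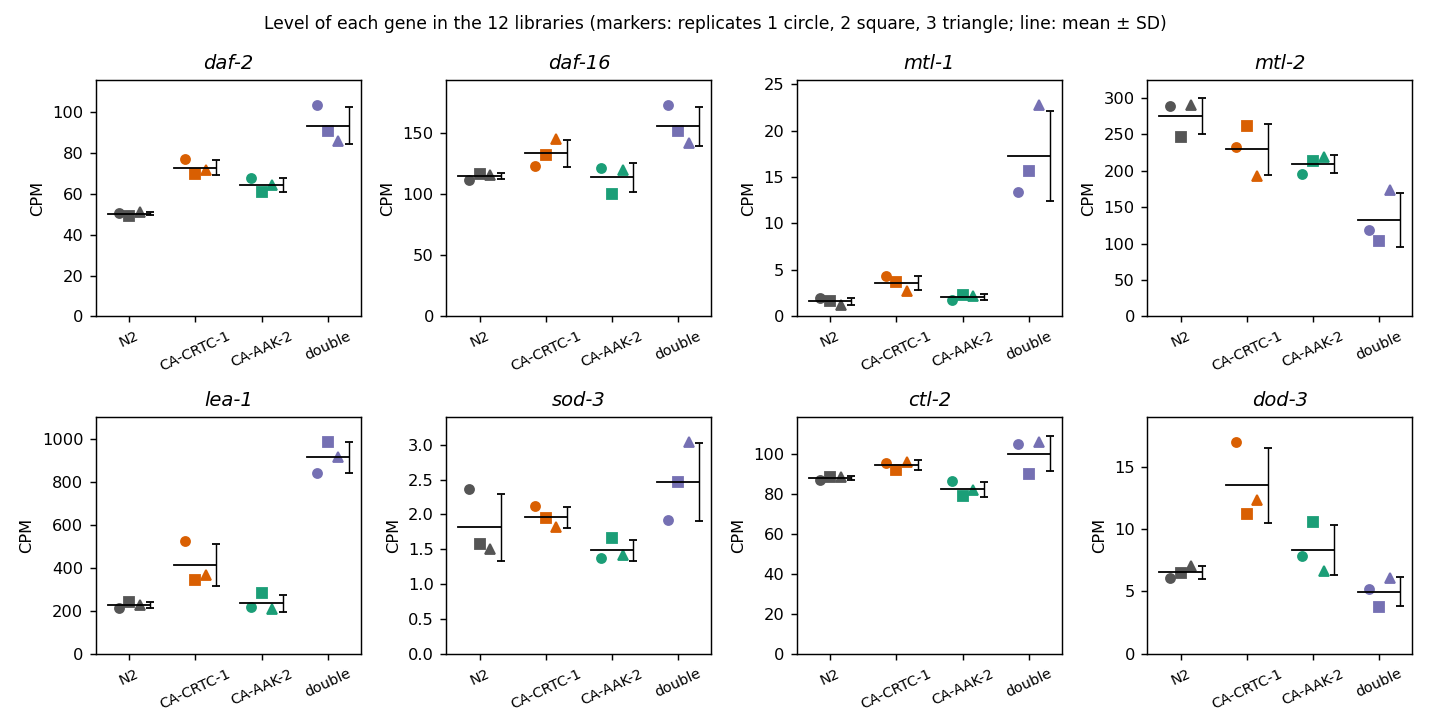
Level of each of the 8 genes in CPM in the 12 libraries, by strain (circle, replicate 1; square, replicate 2; triangle, replicate 3; line and bar, mean ± SD). The double strain lies above the other strains for daf-2, mtl-1 and lea-1 and below them for mtl-2, while for ctl-2 and sod-3 it overlaps CA-CRTC-1.

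The receptor gene daf-2 (III:2994514-3040846, minus strand, WBcel235) stood at 50.6, 49.4 and 51.0 CPM in the N2 libraries and at 67.9, 60.7 and 64.5 in CA-AAK-2. CA-CRTC-1 libraries had 77.1, 69.9 and 71.7 CPM and the double strain 103.6, 90.9 and 85.9. No 2 strains overlapped, with N2 lowest, then CA-AAK-2, then CA-CRTC-1, and the double strain highest. daf-2 rose by 0.88 ± 0.08 in the double strain against N2 (1.84-fold, limma adjusted p = 3.4e-07). Its differences of 0.53 ± 0.08 in CA-CRTC-1 (adjusted p = 0.00013) and 0.35 ± 0.08 in CA-AAK-2 (adjusted p = 0.0018) passed the p threshold in limma but, at 1.44-fold and 1.28-fold, not the fold threshold. The 2 single differences add up to 0.88, the same as in the double strain. The interaction, which is the effect of CA-CRTC-1 with CA-AAK-2 minus its effect without, was 0.00 ± 0.11 for daf-2 with a 95% interval of -0.23 to 0.23.

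The oocyte markers (puf-5, cpg-1, cpg-2, meg-1, oma-1 and oma-2) also separated the strains, in another order. Their summed level was 377 to 456 CPM in N2, 684 to 724 in CA-CRTC-1 and 976 to 1025 in CA-AAK-2. In the double strain it was 1533, 1829 and 1088 CPM. It was lowest in replicate 3, as daf-2 was, but highest in replicate 2, while daf-2 was highest in replicate 1. All 6 markers were called higher in CA-AAK-2 and in the double strain against N2, and 5 of 6 in CA-CRTC-1. The shares of all genes called higher were 8.2%, 15.6% and 6.62% in that order. None of the 6 was at 0 in any library, though meg-1 averaged under 5 CPM in N2 and passed the filter only through the other strains. The part of oocytes in the daf-2 difference was not tested.

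daf-16 (I:10750498-10776703, plus strand) was called in none of the 6 comparisons by limma or edgeR, with an unadjusted limma p under 0.05 in 4 of them. Its N2 libraries held 112, 117 and 116 CPM, those of CA-AAK-2 122, 100.1 and 120.0, those of CA-CRTC-1 123, 133 and 145, and those of the double strain 173, 152 and 142. N2 overlapped CA-AAK-2, and CA-CRTC-1 overlapped the double strain. Against N2 the difference in the double strain was 0.43 ± 0.09 (1.35-fold, limma adjusted p = 0.00092), below the fold threshold. It was -0.02 ± 0.09 in CA-AAK-2 and 0.22 ± 0.09 in CA-CRTC-1 (limma adjusted p = 0.89 and 0.095). The counts are for the whole gene, which has 11 coding transcripts in the WBcel235 annotation, so isoforms of daf-16 were not separated. Per kilobase of exon the level of daf-16 was 31.2 CPM in N2 and 42.3 in the double strain and that of daf-2 6.07 and 11.3.

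Among the targets, the 2 metallothionein genes went opposite ways. Metallothioneins are small cysteine-rich proteins that bind metals, and both genes are classed as activated by DAF-16. mtl-1 stood at 1.97, 1.66 and 1.25 CPM in N2, at 1.73, 2.32 and 2.23 in CA-AAK-2 and at 4.33, 3.69 and 2.76 in CA-CRTC-1. The double strain had 13.4, 15.6 and 22.7 CPM, far above every other library. mtl-1 rose there by 3.04 ± 0.20 against N2 (8.23-fold, limma adjusted p = 2.6e-08). It rose 6.72-fold against CA-AAK-2 and 4.29-fold against CA-CRTC-1 on that scale (limma adjusted p = 1.2e-07 and 3.8e-06). The added 0.5 CPM makes these folds smaller, since mtl-1 averaged 1.63 CPM in N2 and 17.2 in the double strain. EdgeR on the recovered reads gave 3.43 log2 units against N2. It passed the filter of 5 CPM only through the double strain, and the single strains were therefore not tested against N2. With that filter at 1 CPM, the CA-CRTC-1 difference of 0.94 ± 0.20 was called (limma adjusted p = 0.0031).

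mtl-2 stood at 289, 247 and 290.4 CPM in N2, at 233, 262 and 193 in CA-CRTC-1 and at 195, 213 and 218 in CA-AAK-2. The double strain had 118.5, 104.2 and 174 CPM, below every other library, with replicate 3 closest to the rest. mtl-2 fell by 1.09 ± 0.15 against N2 in the double strain (limma adjusted p = 3.2e-05). It also fell by 0.82 ± 0.15 against CA-CRTC-1 and by 0.69 ± 0.15 against CA-AAK-2 (limma adjusted p = 0.001 and 0.0028). Both of these last calls were lost when only the 2 strains compared were fitted, at a limma adjusted p just over 0.01 against CA-CRTC-1 and of 0.011 against CA-AAK-2. The one against CA-AAK-2 was also lost without CA-AAK-2 replicate 2 or 3 (-0.68 and -0.66) or double strain replicate 1 or 2 (-0.63 and -0.54).

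Within a library mtl-1, with 0.373 kb of exon, stayed far below mtl-2, with 0.347 kb, in every strain. Its CPM was 0.681, 0.672 and 0.430% of that of mtl-2 in N2, 1.86, 1.41 and 1.43% in CA-CRTC-1 and 0.884, 1.09 and 1.02% in CA-AAK-2. It was 11.3, 14.99 and 13.1% in the double strain, so this ratio set the double strain apart in all 3 libraries. Per kilobase of exon, mtl-2 was the highest of the 8 members in every strain, at 794 CPM in N2 and 381 in the double strain. By that measure mtl-1 was at 4.36 and 46.2, lea-1 at 47.3 and 189.5, ctl-2 at 54.4 and 62.0, dod-3 at 15.6 and 11.9 and sod-3 at 2.06 and 2.80. Both genes lie on chromosome V, mtl-1 at V:6691371-6691863 and mtl-2 at V:14018270-14018673 on the minus strand of WBcel235, so they are not neighbours. Both are known to be expressed in the intestine. The summed intestine markers were 3982 to 4324 CPM in N2, 3373 to 3964 in CA-AAK-2, 4598 to 5525 in CA-CRTC-1 and 5113 to 5679 in the double strain. None of the 7 markers was at 0 in any library. In the double strain against N2 2 of them rose (elt-2 and asp-1), 1 fell (pept-1) and the other 4 were not called. The shares over all genes there were 15.6% called higher and 6.87% lower. The sum was mostly asp-1, with a mean of 2291 CPM in N2 and 4048 in the double strain, while 5 of the 7 markers had a negative difference and the median was -0.36 beside 0.14 for all genes tested. The part of intestinal RNA in the mtl-1 and mtl-2 differences was not tested.

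**Figure D2:**
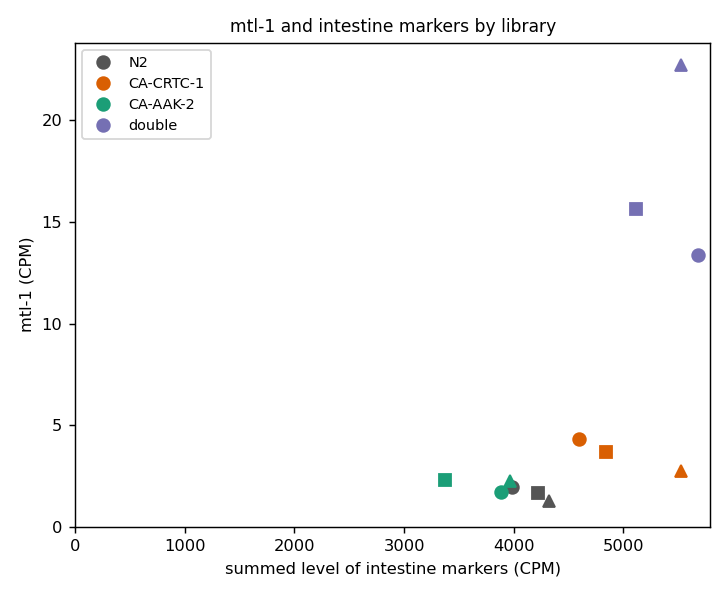
Level of mtl-1 in CPM against the summed CPM of 7 intestine markers in each of the 12 libraries (circle, replicate 1; square, replicate 2; triangle, replicate 3). mtl-1 lies at 13.4 to 22.7 CPM in the double strain, at marker sums of 5113 to 5679 that are mostly asp-1. Of the other libraries CA-CRTC-1 replicate 3 alone reaches that range, at 5525 CPM of markers and 2.76 of mtl-1.

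The gene lea-1, for a late embryogenesis abundant protein that protects against drying, was high in both strains with CA-CRTC-1. Its libraries held 215, 242 and 228 CPM in N2 and 219, 281 and 207 in CA-AAK-2, which overlapped. CA-CRTC-1 had 525, 344 and 367 CPM and the double strain 843, 985 and 918, with no overlap between these or with the former. lea-1 rose by 0.83 ± 0.14 in CA-CRTC-1 and by 2.00 ± 0.14 in the double strain against N2 (limma adjusted p = 0.00053 and 4.6e-08). Against CA-AAK-2 it rose by 1.97 ± 0.14 in the double strain, and against CA-CRTC-1 by 1.17 ± 0.14 (limma adjusted p = 9.4e-08 and 3e-05). In CA-AAK-2 the difference from N2 was 0.03 ± 0.14. The gene (V:10011923-10028168, plus strand, WBcel235) has 17 coding transcripts, which these counts do not separate. It overlaps acl-2 on the other strand, a gene with a mean of 26.9 CPM, and the library kit does not mark strand.

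dod-3 (V:2730622-2731098, minus strand), a gene named as downstream of DAF-16, stood at 6.08, 6.46 and 7.06 CPM in N2 and at 7.84, 10.6 and 6.64 in CA-AAK-2. CA-CRTC-1 had 16.98, 11.3 and 12.35 CPM, above all other libraries, and the double strain 5.16, 3.73 and 6.11. N2 overlapped both CA-AAK-2 and the double strain. dod-3 rose by 0.98 ± 0.19 in CA-CRTC-1 against N2 (limma adjusted p = 0.0017) and fell by 1.35 ± 0.19 in the double strain against CA-CRTC-1 (limma adjusted p = 0.00012). The rise in CA-CRTC-1 was no longer called without CA-CRTC-1 replicate 1 (0.81, limma adjusted p = 0.012). The double strain differed by -0.38 ± 0.19 from N2 and by -0.69 ± 0.19 from CA-AAK-2 (limma adjusted p = 0.1 and 0.012), and neither was called. The second was called without CA-CRTC-1 replicate 1 (-0.69, adjusted p = 0.0096), CA-AAK-2 replicate 3 (-0.83, adjusted p = 0.0074) or double strain replicate 3 (-0.83, adjusted p = 0.004 in limma).

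Of the 2 genes for enzymes that remove reactive oxygen, ctl-2 was not called and sod-3 was too low to test. sod-3 (X:17092753-17094306, plus strand), for a mitochondrial manganese superoxide dismutase that is widely used as a reporter of DAF-16 activity, stood at 2.37, 1.57 and 1.498 CPM in N2 and 2.12, 1.94 and 1.82 in CA-CRTC-1. It had 1.38, 1.66 and 1.42 CPM in CA-AAK-2 and 1.92, 2.46 and 3.03 in the double strain. It was below 5 CPM in every library, and its neighbouring strains overlapped in all 3 steps of their order. The fitted sod-3 difference of the double strain was 0.36 ± 0.17 from N2 and 0.57 ± 0.17 from CA-AAK-2, whose libraries it did not overlap. The gene sod-3 overlaps lido-1 (2.83 CPM) on the other strand. ctl-2 (II:14299556-14302027, minus strand), for the peroxisomal catalase, stood at 86.5, 88.1 and 88.4 CPM in N2, 95.4, 91.6 and 95.9 in CA-CRTC-1, 86.0, 78.8 and 81.7 in CA-AAK-2 and 105, 89.8 and 106 in the double strain. The widest difference, between the double strain and CA-AAK-2, was 0.28 ± 0.07 (1.21-fold, limma adjusted p = 0.0062), below the fold threshold. ctl-2 lies beside its near-identical copies ctl-1 and ctl-3 on chromosome II and overlaps Y54G11A.7 (13.6 CPM), so how its reads were assigned is uncertain.

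**Figure D3:**
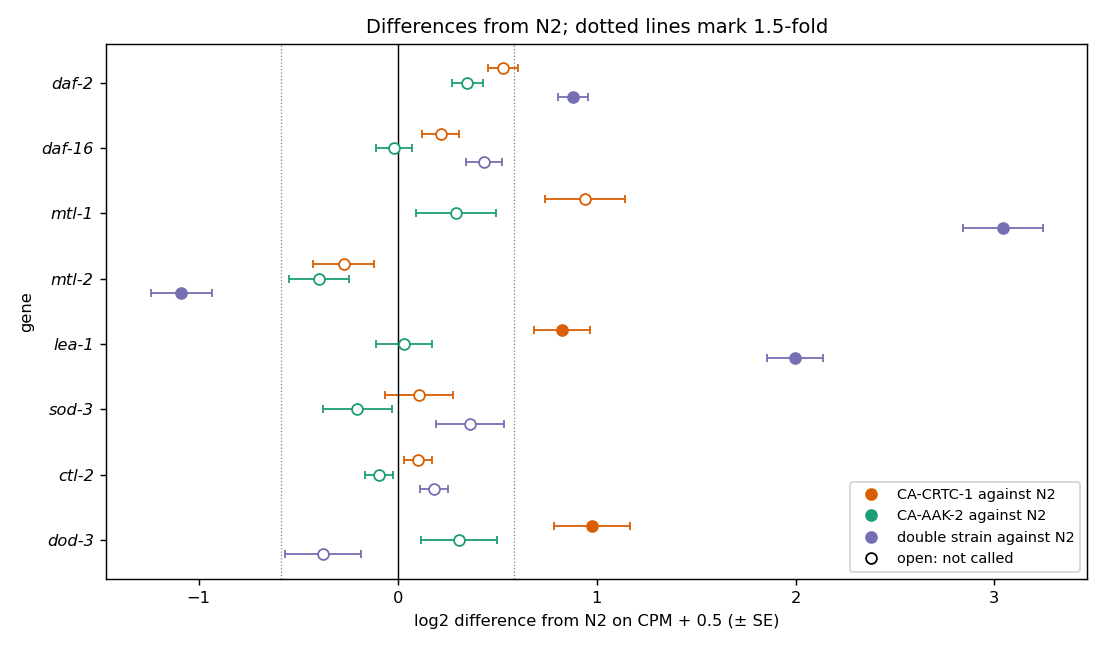
Difference of each gene from N2 in log2 units on CPM plus 0.5, with its standard error, for each of the 3 other strains (filled, called; open, not called or not tested; dotted lines, 1.5-fold). mtl-1 (3.04) and lea-1 (2.00) lie farthest to the right and mtl-2 (-1.09) farthest to the left, all in the double strain.

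The double strain was also compared with each single strain. Against CA-AAK-2 mtl-1 and lea-1 rose and mtl-2 fell, 3 of 7 tested, where 11.3% of all genes were called, 7.66% higher and 3.63% lower. Of the 5 members that averaged at least 5 CPM in both strains, 1 rose and 1 fell. Without double strain replicate 3 daf-2 (0.59) and dod-3 (-0.83) were called too, which made 5. Against CA-CRTC-1 mtl-1 and lea-1 rose and mtl-2 and dod-3 fell, 4 of 7 tested, where 8.84% of all genes were called, 4.68% higher and 4.17% lower. mtl-1 passed the filter there only through the double strain and dod-3 only through CA-CRTC-1, and of the other 5 members 1 rose and 1 fell. EdgeR called 3 and 4 members in these comparisons. In the second, rescaling by the median ratio took the share of called genes that were higher from 52.9% to 40.3%, and the members kept their calls.

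For 3 members the effect of CA-CRTC-1 differed with and without CA-AAK-2, a contrast that also holds the difference in level of both constructs. The interaction was 1.81 ± 0.29 for mtl-1 (limma adjusted p = 0.00048), 1.14 ± 0.20 for lea-1 (adjusted p = 0.001) and -1.66 ± 0.27 for dod-3 (adjusted p = 0.00062). These were 3 of 7 members tested, where 8.72% of all genes were called, 3.9% higher and 4.82% lower, and edgeR called 3 as well. mtl-1 passed the 5 CPM filter only through the double strain, where it is high. With the filter at 1 CPM, which the mtl-1 mean of every strain exceeds (1.63 CPM in N2, 2.09 in CA-AAK-2 and 3.60 in CA-CRTC-1), its interaction had a limma adjusted p of 0.00056. mtl-1 would have stood 2.35-fold above N2 in the double strain had the log2 differences of the single strains added, and it stood 8.23-fold above. lea-1 had 1.82-fold by that sum and 4.00-fold in the double strain. dod-3 had 2.44-fold by the sum and 0.770-fold in the double strain, on the other side of N2. Without double strain replicate 3 the mtl-1 interaction was 1.60, but mtl-1 then fell under the 5 CPM filter and had no call, and mtl-2 was called at -0.64 (limma adjusted p = 0.0071). With that library the mtl-2 interaction was -0.42 ± 0.22 and that of daf-16 0.23 ± 0.13 (limma adjusted p = 0.18 and 0.21).

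**Figure D4:**
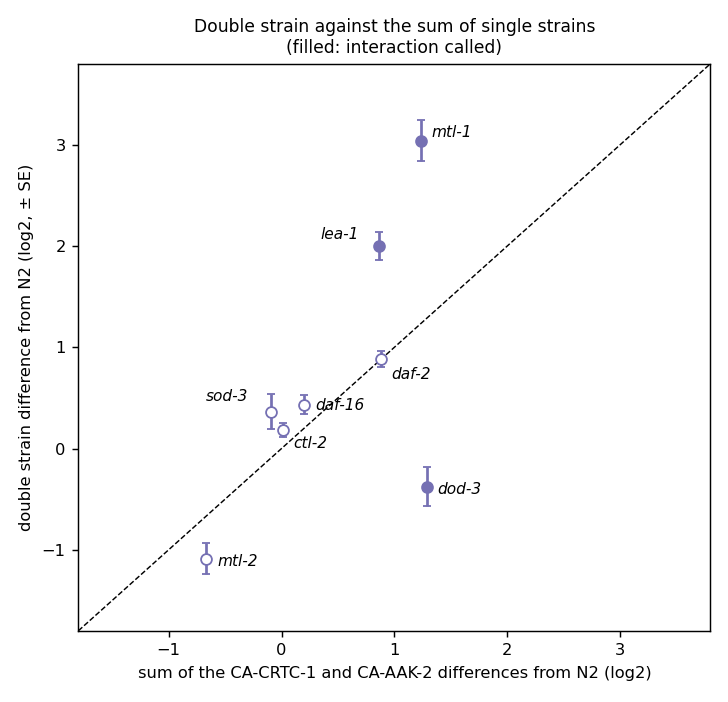
Difference of the double strain from N2 (log2, with its standard error) against the sum of the differences of CA-CRTC-1 and CA-AAK-2 from N2, for each of the 8 genes. daf-2 lies on the dashed line of equality, and mtl-1 and lea-1 lie above and dod-3 below it (filled, interaction called).

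The moult markers were also called in the interaction. The sum of 7 genes of the moult cycle (mlt-10, mlt-11, nas-37, noah-1, noah-2, fbn-1 and dpy-3) was 229 to 268 CPM in N2, 1158 to 1380 in CA-CRTC-1, 754 to 966 in CA-AAK-2 and 549 to 1359 in the double strain. All 7 were called lower in the interaction, where 4.82% of all genes were called lower, and none was at 0 in any library. However, dpy-3 and fbn-1 averaged under 5 CPM in N2 and passed the filter only through the other strains, which favoured their calls. dod-3 was called lower there as well, while mtl-1 and lea-1 were called higher. The double strain libraries ran 852, 549 and 1359 CPM, and replicate 2 was also lowest and replicate 3 highest for mtl-2, dod-3 and ctl-2. The other members did not keep that order. daf-2 and daf-16 were lowest in replicate 3 and lea-1 was highest in replicate 2. mtl-1 and sod-3 were highest in replicate 3 but not lowest in replicate 2. The summed yolk genes, which are adult products, were 6050 to 6471 CPM in N2, 5108 to 5935 in CA-CRTC-1 and 1979 to 2546 in CA-AAK-2, and 3128, 5820 and 1310 in the double strain. The part of developmental timing in the member differences was not tested.

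By a rule on likeness over the 12 libraries, mtl-1 and lea-1 shared pqn-92 among their 3 most similar genes (r = 0.979 for both). pqn-92 stood at 13.98 CPM in N2, 24.3 in CA-CRTC-1, 15.4 in CA-AAK-2 and 46.4 in the double strain, the same order of strains as for lea-1 and mtl-1. daf-2 was most like ced-1, the receptor for engulfing cell corpses, with r = 0.981. mtl-2 was most like sec-61.G, a subunit of the translocon of the endoplasmic reticulum, with r = 0.977. dod-3 had a weaker best match, D1086.8, with r = 0.909, and its second was the collagen prolyl hydroxylase phy-2, with r = 0.876. These coefficients are descriptions over the same 12 libraries and 10578 genes.

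The rest of the pathway was read from lists of genes that partly share members. Of 13 kinases and adaptors that carry the insulin signal, 3 rose and 1 fell in the double strain against N2, and their median difference was 0.17 beside 0.14 for all genes tested. The share called, 30.8%, stood beside 22.5% of all genes (15.6% higher and 6.87% lower), so the list is described and not set apart. rict-1, the Rictor subunit of TORC2, rose by 0.74 ± 0.08, and both subunits of the lipid kinase, age-1 and its adaptor aap-1, rose by 0.66 ± 0.08 and 0.66 ± 0.07. sgk-1, a kinase downstream of TORC2, fell by 0.67 ± 0.09 (limma adjusted p from 1.5e-06 to 1.8e-05 for these 4). age-1 thus stood at 31.5 to 33.9 CPM in N2 and at 49.6 to 55.9 in the double strain, and sgk-1 at 57.1 to 60.5 and 35.3 to 39.1. The list calls were not recomputed under the median ratio, which took the median difference of all genes here from 0.14 to -0.00. The rises of age-1 and aap-1 lie just over 1.5-fold and may not hold under that rescaling. In CA-CRTC-1 akt-2 alone rose (0.60 ± 0.09, limma adjusted p = 0.00029), beside 6.62% of all genes called higher and 2.17% lower. That call was lost without N2 replicate 2, CA-CRTC-1 replicate 1 or CA-CRTC-1 replicate 3. The akt-2 rise too lay just over 1.5-fold and was not recomputed under the median ratio. In CA-AAK-2 limma called 0 of the 13 and edgeR 0, with 7 at an unadjusted p under 0.05, beside 12.6% of all genes called by limma.

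Among the ligands, only 4 of 22 measured insulin-like peptide genes passed the filter of 5 CPM in the double strain against N2. Of these daf-28, an agonist of DAF-2, rose by 0.76 ± 0.14 (limma adjusted p = 3e-04), from 4.17 to 5.28 CPM in N2 to 7.75 to 9.56 in the double strain. daf-28 averaged 4.81 CPM in N2 and passed the filter only through the double strain, where it is higher. Of 11 tested partners and regulators of DAF-16, 1 rose there, eak-7 by 0.67 ± 0.13 (limma adjusted p = 0.00053), and it was lost without N2 replicate 1. The eak-7 rise also lay just over 1.5-fold and was not recomputed under the median ratio. The share called was 25% of the 4 ligands and 9.09% of the 11 regulators, beside 22.5% of all genes (15.6% higher and 6.87% lower).

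Other genes listed as activated by DAF-16 did not move one way. In the double strain against N2 6 of 19 tested rose and 6 fell, and the median difference was 0.35 beside 0.14 for all genes tested. Of all genes, 15.6% were called higher and 6.87% lower. Of the 6 that rose 3 (hsp-16.1, hsp-16.2 and hsp-16.41), and of the 6 that fell 1 (ftn-1), passed the filter only through the strain where they were higher, and of the 15 others 3 rose and 5 fell. hsp-16.41, a small heat shock protein gene, went from 0 to 0.196 CPM in N2 to 18.1 to 32.7, and stood at 1.22 to 2.36 CPM in CA-CRTC-1 and 0.0933 to 0.195 in CA-AAK-2. No fold is given for hsp-16.41, since the pseudocount of 0.5 CPM exceeds its N2 level and would set it. The hsp-16 genes are close copies of one another, so the split of their reads is uncertain. The lysozyme gene lys-7 rose by 2.80 ± 0.12, from 86.6 to 99.0 CPM in N2 to 567 to 862 CPM. msra-1, for methionine sulfoxide reductase, fell by 1.74 ± 0.09, and icl-1, for the glyoxylate cycle enzyme, fell by 1.71 ± 0.10 (limma adjusted p = 5.9e-10 for lys-7, 1.9e-09 for msra-1 and 5.3e-09 for icl-1). The double strain libraries held 134 to 158 CPM of msra-1, and N2 libraries 465 to 535. For msra-1 and icl-1 the interaction was -1.74 ± 0.12 and -1.37 ± 0.14 (limma adjusted p = 1.3e-06 and 1.6e-05).

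In CA-CRTC-1 5 of 17 tested genes of that list rose, beside 6.62% of all genes called higher. By adjusted p the first were lys-7 (1.202 ± 0.12) and sip-1 (0.97 ± 0.13), a small heat shock protein gene. The largest difference of the 4 genes named by that order was that of the heat shock gene hsp-70 (2.42 ± 0.44, limma adjusted p = 0.001), which averaged 3.14 CPM in N2 and passed the filter only through CA-CRTC-1, and the other was asah-1 (0.80 ± 0.15). In CA-AAK-2, where 8.2% of all genes were called higher and 4.4% lower, 2 of 16 rose, lys-7 (1.25 ± 0.12) and sip-1 (0.93 ± 0.13), and 1 fell, the aquaglyceroporin gene aqp-1 (-0.87 ± 0.15, limma adjusted p = 0.00046). The list's median was -0.00 in CA-CRTC-1 and -0.14 in CA-AAK-2, beside 0.07 and 0.11 for all genes tested.

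**Figure D5:**
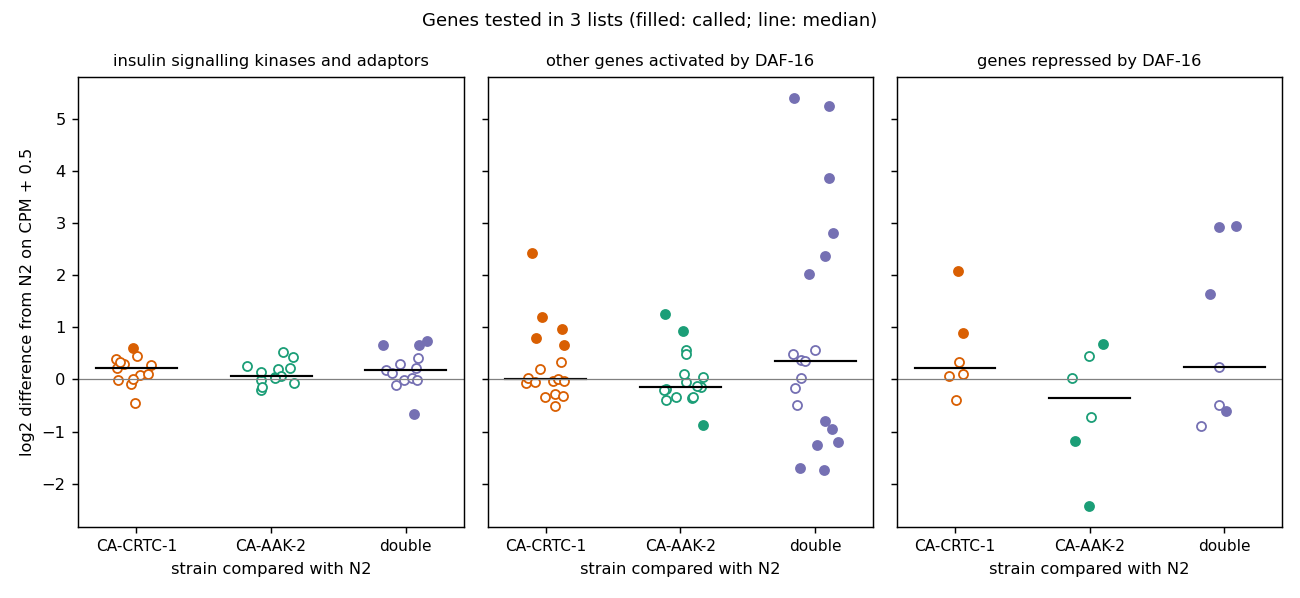
Difference from N2 in log2 units on CPM plus 0.5 for each gene tested in 3 lists, by strain (filled, called; open, not called; line, median of the list; sideways spread only to separate points). In the double strain the genes activated by DAF-16 spread both ways, with 6 of 19 called higher and 6 lower, while the insulin signalling genes stay within about 1 log2 unit.

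Genes listed as repressed by DAF-16 also went both ways. In the double strain against N2 3 of 7 tested rose and 1 fell, beside 15.6% and 6.87% of all genes, with dod-22 at 2.95 ± 0.23, dod-24 at 2.93 ± 0.19, dod-19 at 1.64 ± 0.11 and dod-17 at -0.60 ± 0.11 (limma adjusted p from 1.9e-08 to 0.00021). dod-22 averaged 1.31 CPM in N2 and passed the filter only through the double strain, with 13.98 CPM, and of the 6 others 2 rose and 1 fell. dod-24 stood at 11.9 to 13.7 CPM in N2, 50.4 to 61.4 in CA-CRTC-1, 19.4 to 21.9 in CA-AAK-2 and 73.8 to 154 in the double strain, without overlap. In CA-CRTC-1 2 of 6 tested rose, beside 6.62% of all genes, dod-24 (2.09 ± 0.19) and dod-19 (0.90 ± 0.11). In CA-AAK-2 dod-24 rose (0.68 ± 0.19) and the yolk protein genes vit-5 (-2.44 ± 0.38) and vit-2 (-1.18 ± 0.32) fell, 3 of 6 tested beside 12.6% of all genes. That count went to 1 without any one of the N2 replicates, CA-CRTC-1 replicate 1 or 2, CA-AAK-2 replicate 1 or 3, or double strain replicate 1.

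The remaining lists are given for the double strain against N2, in which 15.6% of all genes tested were called higher and 6.87% lower. With few genes in each list, shares near these say nothing about a list. Beside sod-3 and ctl-2, 2 of 8 tested superoxide dismutase, catalase and peroxiredoxin genes rose, the extracellular sod-4 by 0.87 ± 0.11 and ctl-3 by 1.26 ± 0.21 (limma adjusted p = 1.7e-05 and 0.00014). Of 8 tested genes of the metal response, 2 rose, pcs-1, the phytochelatin synthase, by 1.26 ± 0.10 and cdr-4, a cadmium-responsive gene, by 1.87 ± 0.17 (limma adjusted p = 1.9e-07 and 4.5e-07). Without double strain replicate 3 another 2 of these genes were called, both lower. Of 8 tested dod genes, dod-3 among them, 3 rose and 1 fell, the same genes as those called in the list repressed by DAF-16. Of 5 dao genes 1 rose and 2 fell. dod-22 and the falling dao-6 passed the filter only through the strain where they were higher. Of 3 tested desiccation genes limma called 0 and edgeR 0, with 2 at an unadjusted p under 0.05. Of 10 dauer pathway genes, the nuclear corepressor gene din-1 rose by 0.63 ± 0.09, a call lost without double strain replicate 3, and the oxygenase gene daf-36 fell by 0.74 ± 0.15. The din-1 rise also lay just over 1.5-fold and was not recomputed under the median ratio. Of 13 other longevity regulators 1 fell, nhr-80 by 0.60 ± 0.13 (limma adjusted p = 0.001), and it was lost without double strain replicate 2.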

How the data were processed

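The authors deposited CPM from edgeR, corrected for sequencing depth and library composition, per the series text. Per the submitters' processing notes, CASAVA 1.8.2, cutadapt, TopHat2 2.0.8 and HTSeq were used. Both ce6 and WS238 are named there as genome, so coordinates are from the WBcel235 annotation and only place the genes. Every CPM value is a whole multiple of its library's smallest step within 0.02 reads for 100% of values, so reads were recovered from the deposited CPM, and 1 read is 0.0178 to 0.0285 CPM.

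All 12 samples were fitted together in limma 3.58.1 (R 4.3.3) with a trended prior, taking the log2 of CPM after adding 0.5, for 13765 genes averaging 1 CPM or more. A comparison took genes averaging 5 CPM or more over its samples (the interaction, over all samples), an adjusted p of at most 0.01 and 1.5-fold. Intervals are 95% and use limma's moderated degrees of freedom. Recovered reads were tested with edgeR 4.0.16 by its quasi-likelihood test as an alternative. The scripts were tested on simulated data.

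One further gene of the set is not reported here. The members are named everywhere, and of each list up to 4 called genes per comparison by adjusted p. For the members called in at least 1 comparison the 3 genes of most similar level were found, of which the text names some. Members, gene lists and marker lists were chosen with earlier results of these data known. Same-numbered samples deviated together only in CA-AAK-2 and the double strain (correlations 0.252, 0.313 and 0.275, against -0.259 to -0.0233 for other numbers), a pairing that comes from the data, since the labels do not say what a number shares. No sequence is shown.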

Additional observations from a re-analysis of the deposited data

Results flagged for a closer look

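For 3 members the effect of CA-CRTC-1 differed between the background with CA-AAK-2 and the background without it, by limma's test of the interaction. The level of crtc-1 differed too, at 177 to 207 CPM in CA-CRTC-1 and 350 to 379 in the double strain. Background and construct level thus cannot be told apart here. mtl-1 had an interaction of 1.81 ± 0.29 log2 units, lea-1 one of 1.14 ± 0.20 and dod-3 one of -1.66 ± 0.27 (adjusted p = 0.00048, 0.001 and 0.00062). CA-CRTC-1 with CA-AAK-2 against CA-AAK-2 gave 2.75 for mtl-1, 1.97 for lea-1 and -0.69 for dod-3, and CA-CRTC-1 against N2 gave 0.94, 0.83 and 0.98. All 3 double strain libraries lay above the CA-AAK-2 libraries for mtl-1 and lea-1 and below them for dod-3. mtl-1 passed the filter of 5 CPM only through the double strain, with 1.25 to 4.33 CPM in the libraries of the other strains, and without double strain replicate 3 it fell under that filter and had no call.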

How the results depend on the processing

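The values of members in the 6 comparisons were recomputed under 23 alternatives, fewer for the interaction, and none of the called members changed direction. With the replicate block, 0 of the 48 member calls changed, and the genes called numbered 948, 1333, 2389, 1220, 991 and 1011 (the double strain last among the 3 comparisons with N2 and CA-CRTC-1 first, then the double strain against CA-AAK-2 and against CA-CRTC-1, then the interaction), within 1.5 times the counts without it. Small differences crossed 0. Under the median ratio the lea-1 difference of CA-AAK-2 from N2 was -0.093. Leaving out single libraries gave -0.099 to 0.12 for that lea-1 difference, -0.067 to 0.073 for daf-16 in CA-AAK-2 against N2 and -0.074 to 0.060 for the daf-2 interaction. Leaving out single libraries also took the number of members called from 1 to 2 in CA-CRTC-1 against N2, where a filter of 1 CPM or none gave 3, and from 2 to 5 in the double strain against CA-AAK-2. For all genes, a filter of 1 CPM gave 1436 calls in CA-CRTC-1 against N2, and no filter gave 1644, with 3632 in the double strain against N2 and 1986 against CA-AAK-2, since more genes were tested. At an adjusted p of 0.05 with no fold threshold, the less strict rule called 3 members in CA-CRTC-1 and 2 in CA-AAK-2 against N2 and 7 in the double strain against CA-AAK-2, and 2799, 5028, 6362, 3748, 4207 and 2191 genes in the 6 comparisons in the order above. In the interaction, 44.7% of called genes were higher, and 52.6% under the median ratio. Gene lists and marker lists were not recomputed under the median ratio, so their rises just over 1.5-fold may not hold under it. Depth limits sod-3, with 51 to 145 reads a library, and mtl-1 in N2. The gene list counts without single libraries were chosen after seeing the data.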

Other observations

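The measured gene nearest to mtl-1 on its left, K11G9.5, also rose in the double strain, by 1.42 against N2 and by 1.503 against CA-AAK-2 in log2 units. K11G9.5 rose by 0.82 in CA-CRTC-1 against N2 as well. Its difference of 0.60 in the double strain against CA-CRTC-1, where mtl-1 rose, was not called. It lies 2879 bases away and was picked out after its values were seen. On the other side W02F12.8, 384 bases from mtl-1, differed by -0.13 from N2 in the double strain.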
